A study of Mus musculus with 3 samples.

Results

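The genes that carry fatty acids into heart cells, bind and activate them and oxidise them in mitochondria were followed across cardiomyocyte preparations from mouse hearts of 3 ages. The set held 38 genes, chosen by name, and every probe whose listed gene symbol equalled 1 of them was taken. By that rule 36 of the 38 genes had a probe, 61 probes in all among the 46632 on the array, and 20973 named genes made up the series. Hadha, for the α-subunit of the mitochondrial trifunctional protein, and Acot1, for a cytosolic acyl-CoA thioesterase, had no probe under their own symbols.

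RNA came from hearts of embryonic day 11 to 12, of postnatal day 3 to 4, and of adults aged 10 weeks or more. All 3 groups carried the same strain label, an eGFP reporter with α-MHC (the protein of Myh6) on DBA mice, and differed in the labels by age alone. Liberase enzymes freed the cells, each sample pooled the RNA of several hearts, and each age was read on 1 Illumina bead array. The design mentions a fluorescence sort, whose gate was not given in the labels. No replicate exists, so no value below has a test, and the error given is the standard error from the spread between the beads of a probe, which measures the precision of an array and leaves out animals, preparations and hybridisations.

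Heart muscle takes up fatty acids that lipoprotein lipase frees from blood lipids, through the scavenger receptor CD36 and the fatty acid transport proteins, and fatty acid-binding proteins hold them in the cytosol. Long-chain acyl-CoA synthetases activate them, and the carnitine shuttle, whose entry step is carnitine palmitoyltransferase 1, moves them into mitochondria. There the acyl-CoA dehydrogenases, the hydratases, the hydroxyacyl dehydrogenases and the thiolases shorten the chain in cycles, and electrons leave through the electron transfer flavoprotein. The fetal heart is known to rely more on glucose and lactate and the adult heart more on fatty acids. Many of these genes are textbook targets of the PPAR and ERR nuclear receptors.

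Levels are normalised signals on a log2 scale after background correction, and a gene with several probes is given by the probe with the highest mean. A probe was called detected where its detection p was under 0.01. The counts of higher and lower genes hold those whose log2 signals were at least 1 apart, which is 2-fold, with detection in either array or both. Where the dimmer array did not detect it, the fold is also given as a bound, computed against the lowest signal among detected probes of that array and written "at least". Such a bound holds on this background-corrected scale only, and Cpt1b and Acot2 had smaller folds with an offset of 50 or without background correction. Without background correction Fabp5 also had a fold below its bound, in the adult against the neonatal array. Signals of different probes are not set against each other.

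The arrays differed in more than the fatty acid genes. Each detected between 30.2% and 32.9% of the probes. The 15 cardiomyocyte markers were all detected in the embryonic and neonatal arrays and 11 were in the adult array, where Myh6, the gene named in the reporter, Ttn, Mybpc3 and Nkx2-5 were not. The summed normalised signal of these markers was 270078, 154272 and 7545 from the embryonic to the adult array, so the array labelled adult goes against its label of cardiomyocytes. Fibroblast markers summed to 6625, 142392 and 171804 in the same order, with Tcf21 not detected on any array, and macrophage markers to 1090, 21810 and 47845, with Fcer1g and Cd163 not detected on any. Endothelial markers summed to 1307, 22975 and 19593, with Tie1 and Sox17 not detected on any. Smooth muscle and pericyte markers summed to 23344, 44195 and 34730, with Cnn1 not detected on any. Erythroid markers summed to 56614, 24479 and 26381, with 9, 4 and 3 of 12 detected. Skeletal muscle markers summed to 19875, 2725 and 484, with Myod1, Myog, Myh4 and Myh1 not detected on any. In such bulk RNA fewer cells of a type and less RNA per cell cannot be told apart.

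Sequence windows at the start sites are shown for 3 of the genes whose differences are described below, to place the promoter letters beside the measured levels. They run from 250 bases before to 50 bases after the start, are from RefSeq on build GRCm38.p6, and are written in the direction of the gene. The window of Hadhb (chr5:30155003-30155302, plus strand), for the β-subunit of the trifunctional protein, shares 228 bases with that of Hadha on the opposite strand. The window of Acadm (chr3:153944594-153944893, minus strand), for medium-chain acyl-CoA dehydrogenase, held the core hexamer of nuclear receptor sites once. That of Fabp3 (chr4:130308488-130308787, plus strand), for the heart fatty acid-binding protein, held none of the motifs searched. Capitals mark AGGTCA and GGGCGG, on either strand.
Hadhb: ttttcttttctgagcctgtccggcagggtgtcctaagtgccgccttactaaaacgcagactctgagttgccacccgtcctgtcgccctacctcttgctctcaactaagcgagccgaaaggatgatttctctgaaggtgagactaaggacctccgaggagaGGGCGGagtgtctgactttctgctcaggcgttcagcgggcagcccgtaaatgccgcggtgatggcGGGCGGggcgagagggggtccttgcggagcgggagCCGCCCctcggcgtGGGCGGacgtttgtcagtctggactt
Acadm: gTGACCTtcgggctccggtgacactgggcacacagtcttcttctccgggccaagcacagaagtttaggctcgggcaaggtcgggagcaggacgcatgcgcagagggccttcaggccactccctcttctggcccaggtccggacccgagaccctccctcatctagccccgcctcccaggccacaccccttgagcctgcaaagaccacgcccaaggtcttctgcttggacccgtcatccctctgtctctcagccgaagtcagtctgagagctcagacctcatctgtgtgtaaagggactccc
Fabp3: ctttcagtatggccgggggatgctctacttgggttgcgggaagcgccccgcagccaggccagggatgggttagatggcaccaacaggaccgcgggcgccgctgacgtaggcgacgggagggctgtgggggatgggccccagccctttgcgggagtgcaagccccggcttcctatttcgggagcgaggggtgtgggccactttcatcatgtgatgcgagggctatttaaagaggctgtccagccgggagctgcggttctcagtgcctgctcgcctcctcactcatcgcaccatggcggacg
Windows were given for 31 of the 38 genes, 34 windows in all, and Acaa2, Cpt1b, Crat, Decr1, Fabp4, Fabp5 and Lpl had no entry. The nuclear receptor hexamer AGGTCA lay in 20.6% of the 34 windows and in 16.3% of all 32851 windows of the table, and the GC box GGGCGG in 64.7% and 35.7%. The ERR element TNAAGGTCA, which contains the hexamer, the PPAR direct repeat, which is AGGTCA, any base and AGGTCA again, and the MEF2 element, which is CTA, any 4 bases and TAG, lay in 0 of the 34 windows and in 1.28%, 0.0396% and 3.69% of all windows. Of the 11 genes with a window that were lower in the neonatal than in the embryonic array, 8 held the GC box and 2, Acadm and Echs1, the hexamer. These are matches of letters in a short window, on both strands.

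Of the 36 genes with a probe, the embryonic array detected 29, the neonatal array 30 and the adult array 26, and 25 were found by all 3. Another 5 were detected in none, Cd36, Fabp4, Acsl3, Acacb and Ucp3. Over the 31 genes detected on any array, the embryonic array gave the highest of the 3 signals for 20 (64.5%), against 44.4% of the 10922 named genes detected on any array. The adult array gave the highest for 8 (25.8%, against 30.7%) and the neonatal array for 3 (9.68%, against 24.8%). With median centring the embryonic count was again 20 (against 42.5% of all named genes), and the adult array gave the highest for 2 genes, Lpl and Acsl5 (6.45%, against 13.6%).

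**Figure D1:**
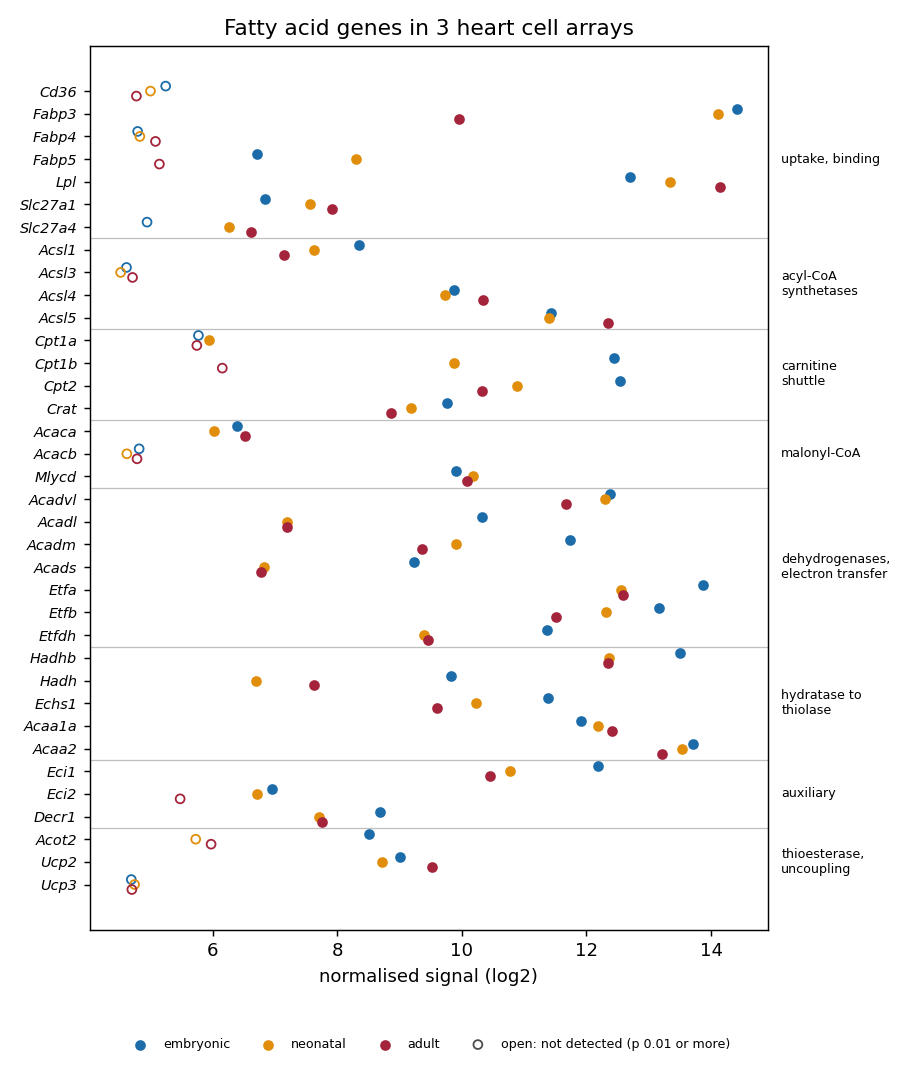
Normalised signal (log2) of the 36 fatty acid genes with a probe, 1 row for each gene and 1 point for each array, grouped by role, with open points where the probe was not detected. Enzymes of the mitochondrial steps mostly have the embryonic point furthest right, Lpl and the transport proteins have the adult point furthest right, and the adult points of Fabp3 and Cpt1b lie far to the left of the others.

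Between the neonatal and embryonic arrays, most genes of the mitochondrial steps were lower in the neonatal array and no measured gene of uptake or activation was 2-fold lower. Of 31 measured genes 12 were at least 2-fold lower (38.7%) and 2 higher (6.45%), beside 19.1% lower and 21.9% higher among 10560 measured genes of the array. The median log2 difference was -0.57 over the 31 genes and -0.05 over all measured genes. From the carnitine shuttle to the auxiliary enzymes, 11 of 18 mitochondrial genes were lower and 0 higher, with a median of -1.23, leaving out the peroxisomal Acaa1a. Of 8 measured genes of uptake, binding and activation 0 were lower and 2 higher, with a median of 0.30. Over the same arrays 8 of 15 cardiomyocyte markers were lower (median -1.03). Of 14 measured fibroblast markers 13 were higher (median 6.67, or 5.98 with undetected sides at their bound). The part of either marker set in these differences was not tested.

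In the carnitine shuttle, Cpt1b, for the muscle form of carnitine palmitoyltransferase 1, had signals of 12.43 (embryonic), 9.87 (neonatal) and 6.15 (adult), the last not detected. It was 5.91-fold lower in the neonatal than in the embryonic array (-2.56 ± 0.07). Cpt2, for the inner-membrane enzyme that hands the chain back to coenzyme A, had 12.53, 10.89 and 10.32, and was 3.11-fold lower in the neonatal array (-1.64 ± 0.08). Cpt1b and Cpt2 were both highest in the embryonic array, and Cpt2 was still detected in the adult array. Cpt1a, for the liver form, was at 5.77, 5.94 and 5.75 and was detected in the neonatal array alone, with a detection p of 0.00998, just under the threshold. Crat, for carnitine acetyltransferase, which buffers acetyl groups, had 9.76, 9.19 and 8.86 on its brightest probe, under 2-fold in each pair, but with median centring the adult differences were -1.12 from neonatal and -1.51 from embryonic.

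Among the acyl-CoA dehydrogenases, which take the first oxidative step on chains of different length, the long-chain gene Acadl had signals of 10.33 (embryonic), 7.19 (neonatal) and 7.20 (adult). It was 8.80-fold lower in the neonatal than in the embryonic array (-3.14 ± 0.12). Acadm, for medium chains, had 11.73, 9.90 and 9.36 and was 3.55-fold lower (-1.83 ± 0.08). Acads, for short chains, had 9.23, 6.83 and 6.78 and was 5.30-fold lower (-2.41 ± 0.10). In all 3 of these genes the neonatal and adult signals lay closer to each other than to the embryonic signal. The very-long-chain gene Acadvl went otherwise, with 12.39, 12.30 and 11.67, a neonatal difference of -0.08 ± 0.09. With median centring its adult differences were -1.49 from neonatal and -1.47 from embryonic.

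The electron transfer genes, which pass electrons from these dehydrogenases to the respiratory chain, were in the same direction. Etfdh, for the membrane oxidoreductase, had signals of 11.37, 9.39 and 9.46 and was 3.95-fold lower in the neonatal than in the embryonic array (-1.98 ± 0.07). Etfa, for the flavoprotein α-subunit, had 13.86, 12.56 and 12.59 and was 2.47-fold lower (-1.30 ± 0.09). Etfb, for the β-subunit, had 13.17, 12.31 and 11.51, a neonatal difference of -0.86 ± 0.07, under 2-fold. Etfa and Etfdh were nearly level between the adult and neonatal arrays (0.03 and 0.07), though with median centring, which moved all genes in this pair, the differences were -0.79 and -0.78, while Etfb was lowest in the adult array.

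Of the later steps of the cycle, Hadh, for the short-chain hydroxyacyl dehydrogenase, had signals of 9.82 (embryonic), 6.70 (neonatal) and 7.63 (adult), and was 8.68-fold lower in the neonatal than in the embryonic array (-3.12 ± 0.10). Hadhb had 13.50, 12.36 and 12.34 and was 2.20-fold lower (-1.14 ± 0.08). Echs1, for the short-chain enoyl hydratase, had 11.38, 10.23 and 9.60 and was 2.23-fold lower (-1.16 ± 0.11). Acaa2 and Acaa1a did not share this pattern on the probes that stand for them. Acaa2, for a mitochondrial thiolase, had 13.70, 13.53 and 13.21, but with median centring the adult differences were -1.05 from neonatal and -1.32 from embryonic. Acaa1a, for a peroxisomal thiolase, had 11.92, 12.18 and 12.41, an adult rank that median centring reverses (-0.60 against neonatal and -0.21 against embryonic).

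Eci1, Eci2 and Decr1 encode the isomerases and the reductase that unsaturated chains need. Eci1 had signals of 12.19, 10.78 and 10.46 and was 2.66-fold lower in the neonatal than in the embryonic array (-1.41 ± 0.07). Decr1 had 8.69, 7.70 and 7.76, and its neonatal difference of -0.99 ± 0.08 lay just short of 2-fold. Its adult difference from embryonic was -0.93, or -1.41 with median centring. Eci2 had 6.96 and 6.71 in the embryonic and neonatal arrays and 5.48 in the adult array, where it was not detected.

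**Figure D2:**
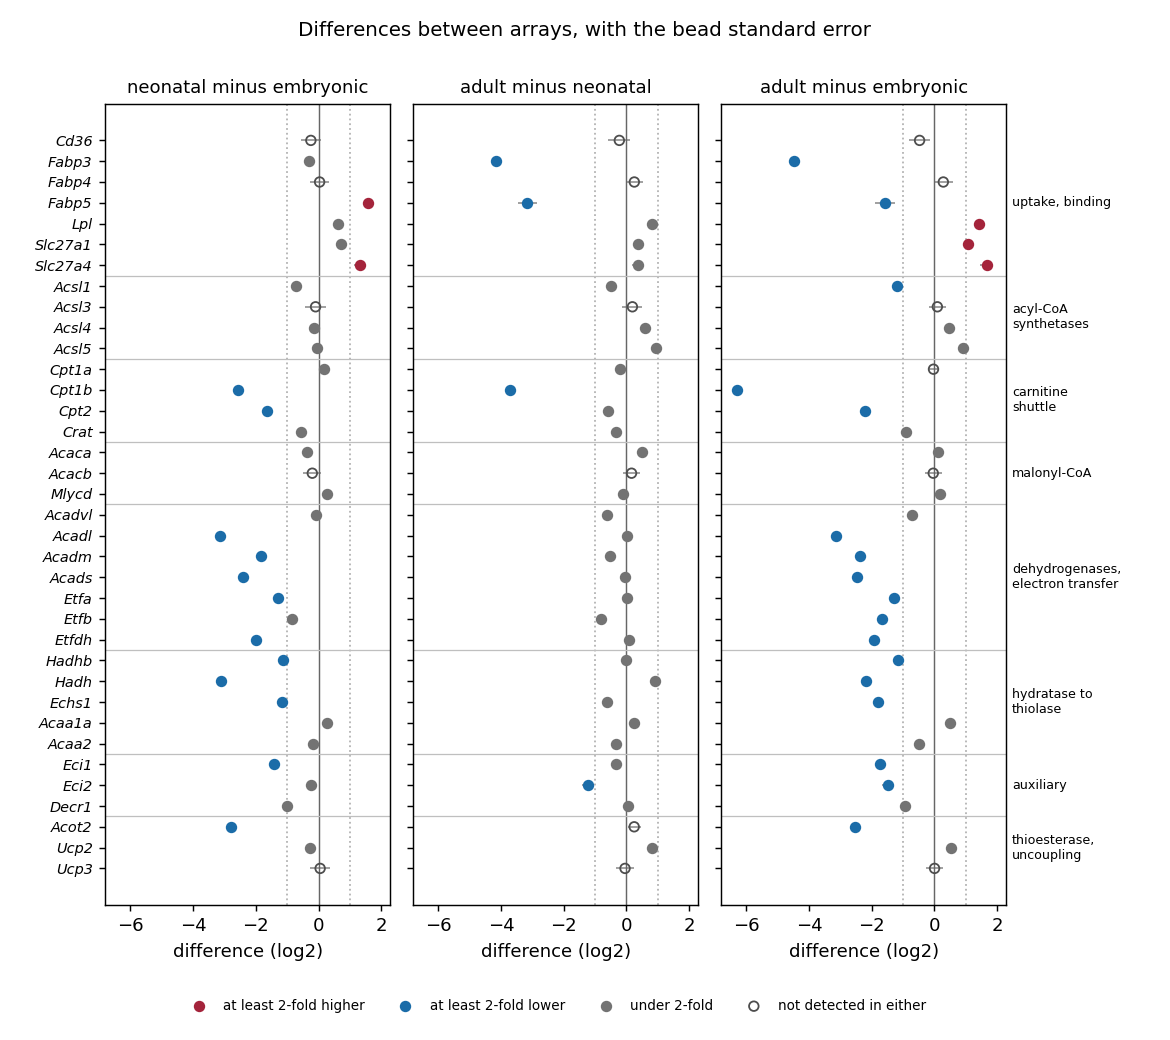
Log2 difference of each fatty acid gene for the 3 pairs of arrays, later age minus earlier, with bars for the bead standard error (mostly smaller than the point) and dotted lines at 2-fold. In the first panel the points left of the line are Cpt1b, Cpt2, 8 genes of the oxidation cycle and electron transfer, Eci1 and Acot2, in the second most points lie between the lines with Fabp3, Cpt1b, Fabp5 and Eci2 to the left, and in the adult minus embryonic panel 17 points lie to the left and 3 to the right.

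Uptake and binding genes varied in other ways. Lpl, for lipoprotein lipase, had signals of 12.70 (embryonic), 13.34 (neonatal) and 14.15 (adult), which is 2.71-fold higher in the adult than in the embryonic array (1.44 ± 0.08). Slc27a1, for fatty acid transport protein 1, had 6.83, 7.56 and 7.92 and was 2.12-fold higher in the adult than in the embryonic array (1.08 ± 0.14). Slc27a4, for transport protein 4, was not detected in the embryonic array, at 4.95, and had 6.26 (neonatal) and 6.62 (adult). Its differences from the embryonic array, 1.31 ± 0.17 neonatal and 1.68 ± 0.20 adult, passed 2-fold as measured, but against the lowest detected signal of the embryonic array the adult value was at least 1.27-fold higher and the neonatal one had no bound above 1. These 3 genes shared the order embryonic, neonatal, adult from low to high, but with median centring in place of quantile normalization Slc27a1 and Slc27a4 were lower in the adult than in the neonatal array, at -0.34 and -0.13, and Lpl and Slc27a1 were less than 2-fold higher in the adult than in the embryonic array, at 0.86 and 0.69.

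Fabp3 had signals of 14.41 (embryonic), 14.11 (neonatal) and 9.95 (adult), with raw intensities of 25436.1, 20454.4 and 613.5. Fabp5, for the epidermal fatty acid-binding protein, which macrophages and endothelium also make, had 6.71, 8.30 and 5.14 and was not detected in the adult array. It was 3.01-fold higher in the neonatal than in the embryonic array (1.59 ± 0.17). Fabp4, the adipocyte and capillary form, and Cd36 were detected on no array, each through 1 probe, with raw intensities of 60.7 to 70.0 for Fabp4 and 51.1 to 81.8 for Cd36. Of 7 adipocyte markers on the array, Cidea alone was detected, in the embryonic and neonatal arrays, and Adipoq, Lep, Retn, Cfd, Plin1 and Cidec on none. Endothelial markers were detected in the neonatal array in 12 of 14 and in the adult array in 11 of 14, while the probes of Fabp4 and Cd36 were not.

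Of the long-chain acyl-CoA synthetase genes, Acsl1, for the main form of heart muscle, had signals of 8.35 (embryonic), 7.63 (neonatal) and 7.14 (adult). Acsl4, which prefers arachidonate, had 9.88, 9.73 and 10.33, and Acsl5 had 11.43, 11.39 and 12.35. Acsl1 was lowest and Acsl4 and Acsl5 were highest in the adult array, though 2 of 4 measured Acsl4 probes were lowest there, and with median centring the adult signal of Acsl4 was the lower one in both pairs, at -0.26 against the neonatal and -0.22 against the embryonic array. Acsl5 was higher by 0.96 ± 0.06 in the adult than in the neonatal array, just under 2-fold, and Acsl1 was 2.30-fold lower in the adult than in the embryonic array (-1.20 ± 0.11).

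Malonyl-CoA blocks carnitine palmitoyltransferase 1. Mlycd, for the decarboxylase that removes it, had signals of 9.90, 10.18 and 10.08 and differed by no more than 0.28 between any 2 arrays, though with median centring the adult signal differed by -0.96 from the neonatal and -0.49 from the embryonic one. Acaca, for the cytosolic acetyl-CoA carboxylase that makes it, was barely detected at 6.39, 6.03 and 6.52, and Acacb, for the carboxylase form at mitochondria, was not detected. Among genes that dispose of fatty acyl groups or of the proton gradient, Acot2, for a mitochondrial thioesterase, was detected in the embryonic array alone at 8.51, with 5.73 (neonatal) and 5.97 (adult) elsewhere, a neonatal signal at least 5.97-fold below the embryonic one, where the log2 difference was -1.87 without background correction. Acot2 and Acot1 are near-identical neighbours, and whether the Acot2 probe reads both was not examined. Ucp2, for an uncoupling protein common in immune cells, had 9.01, 8.72 and 9.53, where median centring turned the adult differences to -0.03 from neonatal and -0.13 from embryonic, and Ucp3, the muscle form, was not detected.

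Between the adult and neonatal arrays most of the fatty acid genes stayed under 2-fold, and the exceptions were all lower in the adult array. Of 30 measured genes 4 were at least 2-fold lower (13.3%) and 0 higher, beside 14.1% lower and 12.4% higher among 10404 measured genes, so the share of lower genes was close to that of the array. The median difference was -0.07 over the 30 genes and -0.12 over all measured genes. Median centring put the whole array lower in this pair, with a median of -0.86 over all measured genes and -0.83 over the 30 genes. Of the 30 genes 13 were then lower, beside 4418 of the 10404 measured genes. Among all called genes 11.5% were then higher, beside 46.7% with quantile normalization. Fabp3 was 17.9-fold lower in the adult array (-4.16 ± 0.09). Cpt1b was at least 12.2-fold lower (-2.87 on the log2 scale without background correction), its adult detection p of 0.01123 lying just over the threshold. Fabp5 was at least 4.13-fold lower (-1.98 on the log2 scale without background correction). Eci2 was 2.35-fold lower as measured (-1.24 ± 0.18), but only at least 1.37-fold lower against the lowest detected signal of the adult array.

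The cardiomyocyte markers behaved unlike most of these genes between the adult and neonatal arrays. All 15 were at least 2-fold lower in the adult array, with a median of -4.15. The 18 genes of the mitochondrial steps had a median of -0.32 with 2 lower and 0 higher, beside 14.1% and 12.4% of all measured genes. Differences of Fabp3 and Cpt1b, the heart and muscle forms of their families, were close to the marker median, and those of Cpt2, Acadm and Hadhb were -0.58 ± 0.10, -0.54 ± 0.11 and -0.02 ± 0.09. With median centring Cpt2, Acadm and Hadhb differed by -1.43, -1.38 and -0.87, and Fabp3 and Cpt1b by -4.78 and -4.18. Acsl1, for the main form of heart muscle, was far from the marker median, at -0.49, or -1.075 with median centring. Fibroblast markers had a median of 0.08 and macrophage markers of 0.79 (0.73 with undetected sides at their bound), with 6 of 14 macrophage markers higher and 0 lower. How far cells of these types carry the adult signals of the mitochondrial genes was not tested.

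Between the adult and embryonic arrays 17 of 30 measured genes were at least 2-fold lower (56.7%) and 3 higher (10.0%), beside 26.6% lower and 25.1% higher among 10542 measured genes. The median difference was -1.24 over the 30 genes and -0.18 over all measured genes. The 3 higher genes were Lpl, Slc27a1 and Slc27a4. Of 17 measured genes of the mitochondrial steps 13 were lower and 0 higher, with a median of -1.73. Cpt1b was at least 72.3-fold lower, with a log2 difference of -5.36 without background correction, and Fabp3 was 22.1-fold lower (-4.47 ± 0.06). Acadl was 8.75-fold lower, Acads 5.48-fold, Acadm 5.15-fold, Cpt2 4.64-fold and Hadh 4.56-fold, and Acot2 was at least 4.76-fold lower. Etfb passed 2-fold in this pair, at 3.16-fold lower (-1.66 ± 0.08), and Fabp5, 2.97-fold lower as measured, was at least 1.37-fold lower. This pair shares its arrays with both other pairs. All 15 cardiomyocyte markers were lower (median -5.76, or -5.145 with undetected sides at their bound). All 14 measured macrophage markers and all 14 measured fibroblast markers were higher. The part of these marker sets in the differences was not tested.

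With the undetected side of a pair set to its bound, the counts were 12 lower and 1 higher of 31 in the neonatal against the embryonic array (beside 17.2% and 17.6% of all measured genes), 3 lower and 0 higher of 30 in the adult against the neonatal array (10.7% and 11.1%), and 15 lower and 2 higher of 30 in the adult against the embryonic array (22.9% and 21.4%).

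Probes of a gene did not always give the same difference. Of the genes, 16 had several probes, 41 in all. The other probes of Lpl, Fabp5, Acot2, Acsl5, Ucp2, Hadh and Cpt1a were detected on no array, so the values of these genes rest on the probe given. Of 8 genes with at least 2 measured probes between the neonatal and embryonic arrays, 4 had all probes on the same side of the 2-fold rule and 4 did not. The pairs of Cpt1b (-2.56 and -2.57), Cpt2 (-1.64 and -1.63) and Etfa (-1.30 and -1.16) gave nearly the same value, and the 4 measured probes of Acsl4 lay between -0.21 and -0.01. Between the adult and embryonic arrays the Acsl4 probes parted, at 0.46, 0.37, -0.34 and -0.24. The brightest probe of Acaa2 differed by -0.17, and its other probes, with signals of 11.23, 8.64 and 10.13 and of 10.74, 8.68 and 10.06 in the embryonic, neonatal and adult arrays, differed by -2.59 and -2.06. Between the adult and neonatal arrays these probes were higher by 1.49 and 1.38, against -0.32 on the brightest. Whether Acaa2 passed 2-fold thus depended on the probe in both pairs.

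Crat and Echs1 also differed by probe. The brightest Crat probe differed by -0.57 between the neonatal and embryonic arrays. The other 3 probes, each detected in the embryonic array alone, differed by -1.15, -2.06 and -2.40. With the undetected side at its bound these were -1.087, -0.916 and -1.322, so the probe at -2.06 fell short of 2-fold. Between the adult and embryonic arrays the brightest differed by -0.90 and these 3, in the same order, by -1.67, -1.71 and -2.16 as measured. Their bounds there were -0.76, -0.589 and -0.995, so none of the 3 passed 2-fold by the bound. The mean over the Crat probes, with signals as measured, gave -1.54 (neonatal) and -1.61 (adult) against the embryonic array. For Echs1 the probes differed by -1.16 and 0.34, the second of them dim, at 6.26, 6.60 and 6.63 and not detected in the embryonic array. The dim probe of Acadl, at 6.81 in the embryonic array, differed by -0.98 where the bright probe differed by -3.14. Which transcripts each probe reads was not examined.

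Probes outside the naming rule carried the accession of a member in 3 cases. A probe listed as LOC623031 with an accession of Hadhb had signals of 11.45, 7.04 and 8.83, a neonatal difference of -4.41 ± 0.13 and an adult difference from neonatal of 1.78 ± 0.12. A probe listed as LOC100046918 with an accession of Etfa had 11.99, 8.85 and 10.20, with differences of -3.14 ± 0.09 and 1.35 ± 0.10. Both were lowest in the neonatal array, as were the dimmer Acaa2 probes and the bright Hadh probe, whereas the Hadhb and Etfa probes under their own symbols were level between the neonatal and adult arrays. The probe listed as GM444 with an accession of Hadha was not detected on any array, nor was the probe listed as CTE1, an older name of Acot1.

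**Figure D3:**
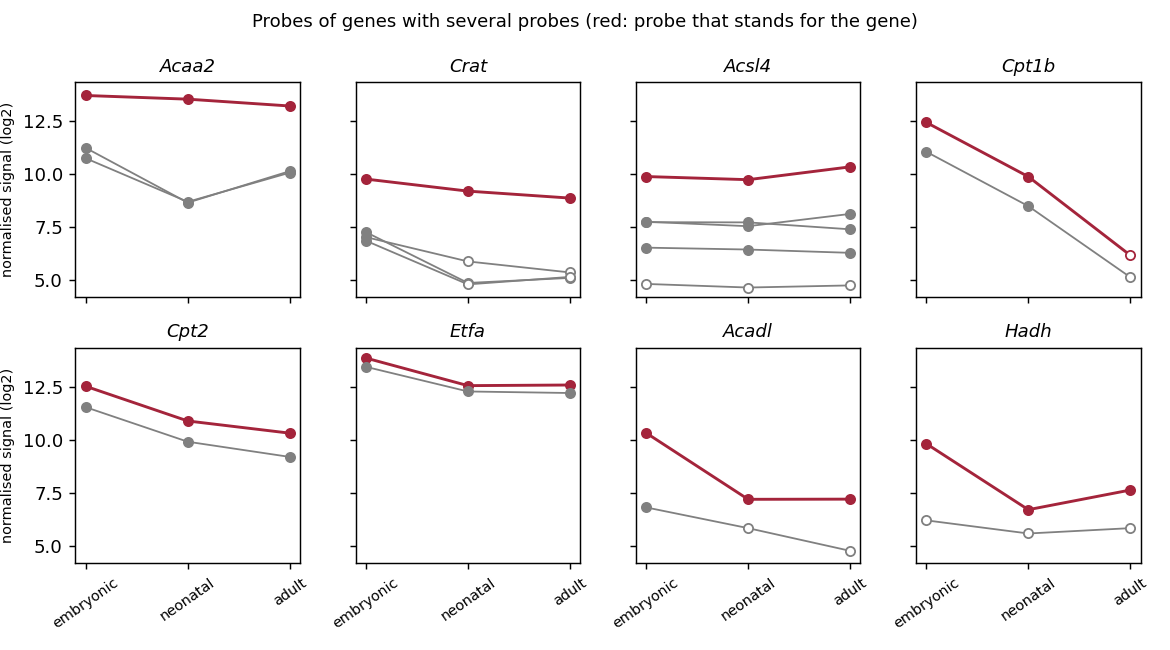
Normalised signal (log2) of each probe of 8 fatty acid genes in the embryonic, neonatal and adult arrays, with the probe that stands for the gene in red, the others in grey, and open points where a probe was not detected. The probes of Cpt1b, Cpt2 and Etfa run side by side, and the grey probes of Acaa2 dip in the neonatal array where the red one does not.

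Other genes of lipid metabolism were read for comparison, from lists drawn up by function. Of 17 measured genes of a list of further oxidation and transport genes, 6 were at least 2-fold lower and 2 higher in the neonatal than in the embryonic array, with a median of -0.75, beside 19.1% lower and 21.9% higher among all measured genes. The 2 higher genes were the transport protein genes Slc27a3 and Slc27a6, at 1.41 and 1.69. Bdh1, for a ketone body dehydrogenase, was at least 10.2-fold lower (raw intensities 97.2 neonatal and 702.2 embryonic), Acad8, of valine breakdown, had a difference of -2.08, and Acot13, for a thioesterase, of -1.97. In the adult against the neonatal array 3 of the 17 were lower and 2 higher, with a median of 0.04, beside 14.1% and 12.4% of all measured genes. Of 8 measured peroxisomal genes 1 was lower in the neonatal than in the embryonic array, Pex11a, for peroxisome division, at -2.01, and 0 were higher, and in the adult against the neonatal array 2 of 9 were higher and 0 lower with a median of 0.59.

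Of 16 measured genes of triglyceride storage and lipolysis 6 were higher and 0 lower in the neonatal than in the embryonic array, with a median of 0.82, beside 21.9% higher and 19.1% lower among all measured genes. Angptl4, for an inhibitor of lipoprotein lipase, was higher by 3.50, Gpihbp1, which anchors the lipase to capillaries, was at least 2.57-fold higher and Plin4, of lipid droplets, at least 2.82-fold. The adult against the neonatal array had 3 of the 16 higher and 2 lower, with a median of 0.09, beside 12.4% higher and 14.1% lower among all measured genes. G0s2, for an inhibitor of adipose triglyceride lipase, was higher by 2.03 there, and Dgat2, for a triglyceride-forming acyltransferase, and Gpihbp1 had differences of -1.18 and -1.01. Fatty acid synthesis genes had a median of 0.08 between the neonatal and embryonic arrays over 10 measured genes. Of these 2 were higher and 1 lower, beside 21.9% and 19.1% of all measured genes. Scd1, for stearoyl-CoA desaturase, had signals of 7.56, 11.06 and 12.70 from embryonic to adult, and Fasn and Acly, for the synthase and the citrate lyase, stayed under 2-fold.

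Of 18 measured regulators of the pathway 8 were lower and 2 higher in the neonatal against the embryonic array (median -0.62), beside 19.1% lower and 21.9% higher among all measured genes. Ppargc1a, for the coactivator PGC-1α, had signals of 10.34, 7.56 and 4.90, the last not detected, and Esrrg, for ERRγ, 10.59 in the embryonic array and no detection later. Ppara, for the receptor best known for this pathway, was not detected on any array, and Ppard, for PPARδ, had 9.14, 10.88 and 10.95. Of the 18, in the adult against the neonatal array, 2 were lower and 2 higher, beside 14.1% and 12.4% of all measured genes. Pparg, for PPARγ, was at least 3.16-fold higher there, and Ppargc1a at least 2.46-fold lower.

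**Figure D4:**
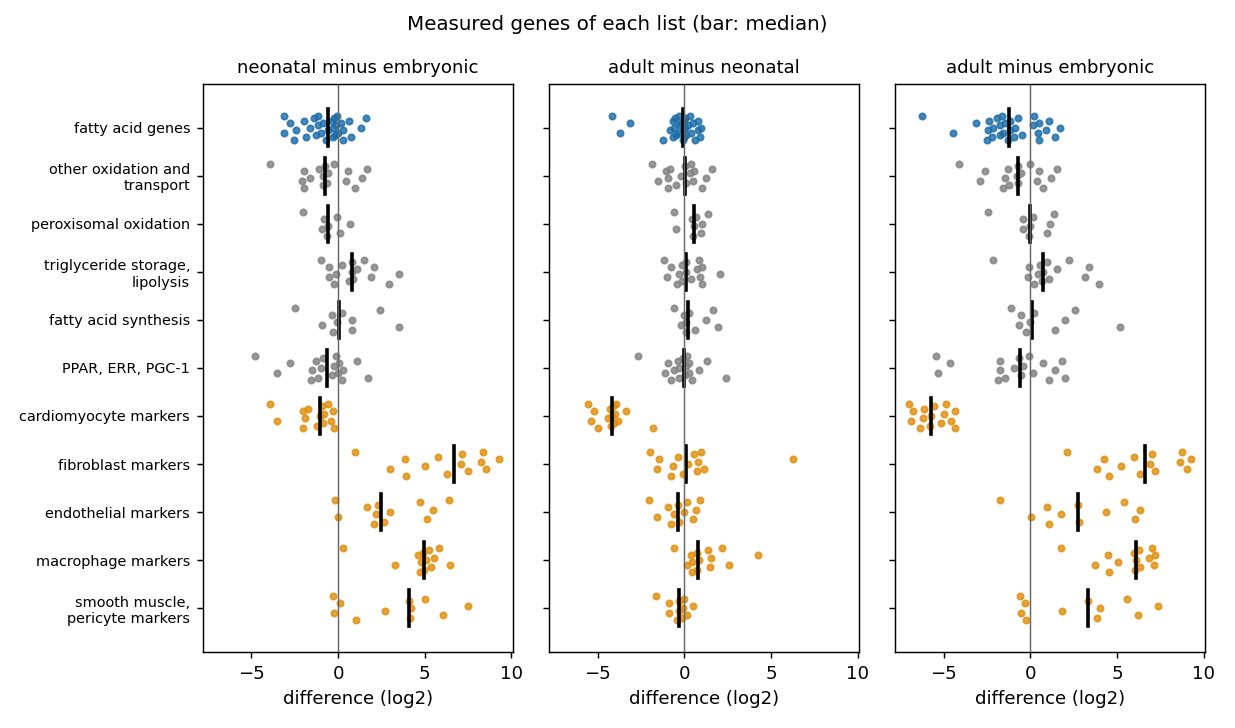
Log2 difference of each measured gene (points) and list median (bars) for the fatty acid genes, the other lipid lists, the regulators and the cell type markers, in the 3 pairs of arrays, later age minus earlier. Cardiomyocyte markers stand far left in both panels with the adult array, where the fatty acid genes have medians of -0.07 and -1.24, and most markers of other cell types stand right in both panels with the embryonic array.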

How the data were processed

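Biotin-labelled cRNA from 3 pooled RNA samples was hybridised to Illumina bead arrays, per the labels' protocols, and no source used here names the scanner software or array version. The raw table deposited by the authors holds linear probe intensity with, per the file headers, the spread between beads, the bead counts (a median of 37 beads for a probe) and a detection score. The deposited score increases with signal, so its complement served as a detection p. The authors' deposited processed intensity served as an alternative.

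Background correction, an offset of 16, quantile normalization and log2 came from neqc (limma 3.58.1, R 4.3.3). A shift common to all genes is hidden by this normalization, and dim probes have differences nearer to 0 through the offset. Tables were made with Python 3.11.15 and pandas 2.3.3. Accessions, symbols and synonyms of the RefSeq gene table (GRCm38.p6) named 34724 probes, and 134 with conflicting names were left out. The lowest detected signals were 6.27, 5.93 and 6.26 from the embryonic to the adult array.

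Genes named are the 38 chosen ones, in full where at least 2-fold apart in a pair, and at most 4 per other list and pair by size of difference, with a few genes of known role added after their values were seen. The group of mitochondrial steps without Acaa1a was set after its values were seen. Genes, 8 roles, 5 other lists and 8 marker lists were chosen with earlier results of these data known. The procedure was tested on simulated data in which few probes changed, equally many up and down. How it performs where many genes differ, as in these arrays, was not tested. With 1 array for each age no test was made. The alternatives were the background correction, offset, normalization, source of values, detection filter, probe rule and size rule.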

Additional observations from a re-analysis of the deposited data

How the results depend on the processing

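The 12 lower genes in the neonatal against the embryonic array numbered 8 at 3-fold and 15 at 1.5-fold, and where every detected probe counted, 20 probes of 14 genes were lower. The 2 higher genes there were 1 without background correction, with an offset of 50, with detection in both arrays, with the mean over probes, with the bound and at 3-fold, and 4 at 1.5-fold. Of all 10560 measured genes 2308 were higher there, 1799 without background correction and 1944 with an offset of 50. For the adult against the neonatal array the 4 lower genes were 13 with median centring, where 4418 of all 10404 measured genes were lower. These 4 were 1 with detection in both arrays and 7 at 1.5-fold. The 0 higher genes were 5 at 1.5-fold, while 2 probes, both of Acaa2, were higher where every detected probe counted. The 3 higher genes of the adult against the embryonic array were 1 without background correction, with median centring and at 3-fold. The 17 lower genes of that pair were 14 without background correction, 13 with detection in both arrays and 21 with median centring. They were 12 at 3-fold and 20 at 1.5-fold, and the median of -1.24 was -0.87 without background correction. Of all 10542 measured genes 2642 were higher and 2800 lower in that pair. These counts were 2217 and 2249 without background correction, and 2020 and 4372 with median centring. Counts that differ follow from the stricter or wider rule itself for the size, detection and bound settings, and for the rest the cause was not tested. The bound and the normalization of only the 2 arrays of a pair were chosen after seeing the data.

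Median centring moved the median of all measured genes to 0.13 for neonatal minus embryonic, -0.86 for adult minus neonatal and -0.71 for adult minus embryonic, and the share of higher among called genes to 62.2%, 11.5% and 31.6%, beside 53.4%, 46.7% and 48.5%. The fatty acid medians were then -0.48, -0.83 and -1.55. Relative to all genes they lay at -0.61, 0.03 and -0.84, beside -0.52, 0.05 and -1.06 with quantile normalization. Of the single genes, 0 changed sign while called, and the 2-fold call was lost or gained in 2 and 14 cases with median centring, 7 and 0 without background correction, 5 and 3 with the mean over probes (lost for Fabp5, Lpl and Echs1, gained for Crat and Acaa2) and 3 and 0 with an offset of 50.

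No paired analysis was possible because each age has 1 array. Array number limits the precision, and dim genes near background, such as Cpt1a, Acaca and Slc27a4, are read least firmly.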
